A study of Mus musculus with 36 samples.

Results

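The effect of T0901317, a synthetic agonist of the liver X receptors (LXR), was measured in the livers of mice with the normal receptor, in 8 of the 36 libraries of the series. These 8 were chosen by their labels: 4 W/W mice given T0901317 and 4 W/W mice given vehicle. W/W mice are the homozygous controls of a CRISPR line in which tryptophan 441 of LXRalpha was replaced by phenylalanine, so they carry tryptophan on both alleles. The series also holds heterozygous (W/F) and homozygous (F/F) mutants and a separate chow cohort of each genotype, 4 mice per group, and these entered the fit and the comparisons named as such.

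All 8 W/W mice were male, 11 to 12 weeks old, and had been fed for 4 weeks a diet used to bring on steatohepatitis of metabolic origin (MASH). During the last 2 weeks they received either 10 mg/kg T0901317 or vehicle each day by oral gavage. The W/W chow mice were of the same sex and age and came from an independent cohort, so the MASH diet and the cohort cannot be told apart. Several facts limit these groups as a model: the strain, and whether the W/W mice were littermates of the mutants, are not given in the labels, only 1 dose and 1 time were used, and T0901317 activates both LXRalpha and LXRbeta and is also known as a ligand of the pregnane X receptor (PXR). The series text writes the LXRalpha gene as Nr1h2, the symbol that the annotation gives to LXRbeta, and LXRalpha is listed as Nr1h3, so both are reported.

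LXRalpha and LXRbeta are nuclear receptors for oxidised cholesterol that bind DNA together with the retinoid X receptor. In liver they are known for raising genes that move cholesterol out of cells and into bile, that remodel phospholipids, and that make fatty acids, the last partly through the transcription factor SREBP-1c, a product of Srebf1. Synthetic LXR agonists are known to raise liver and plasma triglycerides in mice.

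Expression was deposited as TPM (transcript abundance scaled to gene length and library size), and differences are T0901317 minus vehicle in log2(TPM + 1) with the standard error (SE) of the fit, a scale that understates the change of genes at low levels. Values of replicates 1 to 4 are given in that order throughout. Depth recovered from the spacing of low values was 22.8 to 34.3 M reads in the T0901317 libraries and 21.3 to 24.6 M in the vehicle libraries. The first principal component of the 8 libraries held 39.3% of the variance and separated the groups without overlap. Mitochondrially encoded genes held 13.6% to 15.8% of TPM with T0901317 and 11.1% to 13.0% with vehicle, without overlap (exact permutation test, two-sided, p = 0.0286, the smallest that 4 against 4 allows), and the part of this in the results was measured only by rescaling without these genes. T0901317 replicate 2 and vehicle replicates 1 and 4 were at the extremes of their groups in several gene lists below, and counts without them are given beside some of those lists. Vehicle replicate 2 was the highest vehicle mouse for 22 of 37 fatty acid synthesis genes and 22 of 34 cholesterol genes. It was also the highest for 20 of 41 triglyceride and lipid droplet genes, and counts without it are not given beside these lists. Albumin (Alb), a hepatocyte marker, was at 51422 ± 4864 TPM with T0901317 and 49754 ± 8757 TPM with vehicle (mean ± SD, n = 4 each). Only 2 of 14 hepatocyte markers tested, Alb among them, had a higher mean with T0901317.

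Of 16638 genes tested, 1794 (10.8%) differed between T0901317 and vehicle at an adjusted p under 0.05 (limma), 1310 (7.87%) higher and 484 (2.91%) lower with T0901317. These genes are termed called below, and the counts of each gene list are to be read beside these shares. At least 2-fold differences were called for 373 genes (2.24%), of which 294 (1.77%) were higher and 79 (0.475%) lower. The 4 and 4 values did not overlap for 2749 genes (16.5%), and 1573 (9.45%) were both called and without overlap. Without T0901317 replicate 2 the count was 1333, of which 1276 were among the 1794. The median difference over all genes tested was 0.06. The share of higher genes among those called depended on the scaling and on vehicle replicate 1. It was 73.0% on the deposited scale, 59.2% of 2249 genes after median-of-ratios rescaling and 52.6% of 1923 genes on recovered reads. With mitochondrial genes left out of the total it was 80.4% of 2147 genes. Without vehicle replicate 1 it was 63.0% of 1440 genes, and 72.2% to 77.9% without any other single library.

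**Figure D1:**
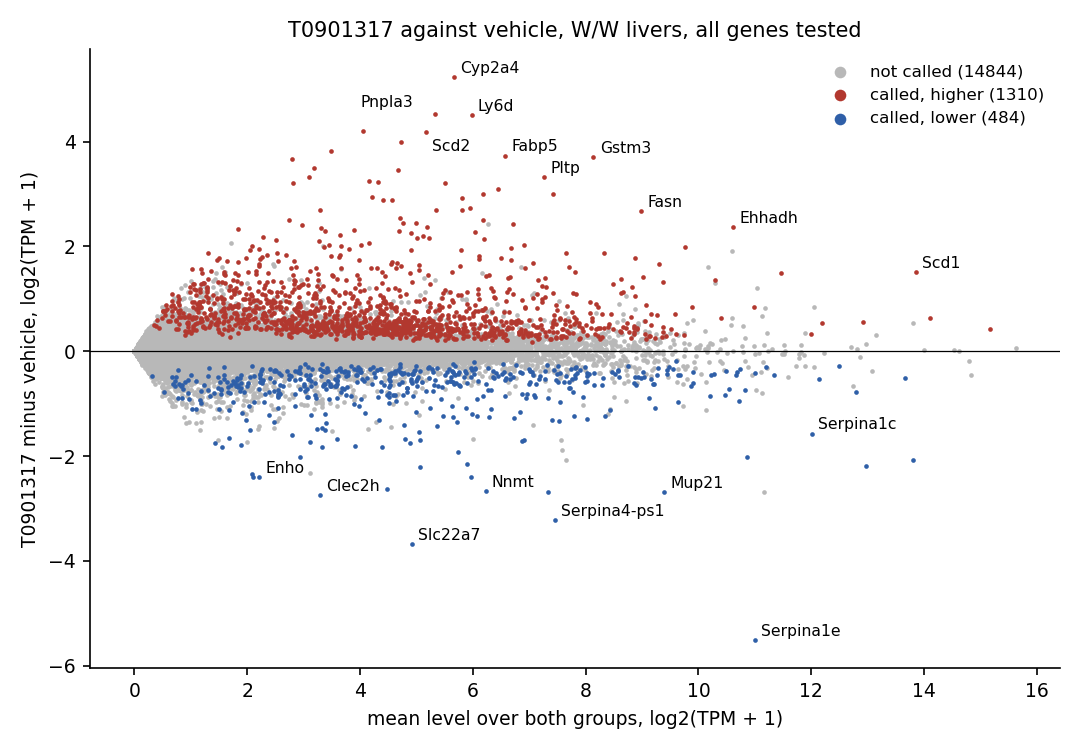
Each point is 1 of the 16638 genes tested, with its mean level over the 8 W/W libraries on the x axis (log2 of TPM + 1) and the difference T0901317 minus vehicle on the y axis (log2 scale). The 1310 genes called higher are red and the 484 called lower are blue, and the extremes are Cyp2a4 at 5.22 and Serpina1e at -5.50.

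A DNA sequence bound by LXR in known target genes gives a way to see the members of the response at the level of the promoter. The 250 bases before each annotated start (RefSeq, GRCm38.p6) were searched on both strands for TGACC and AGTAACC separated by 3 bases of any kind, a form of the repeated element bound by LXR and its partner that was written down after the sequences had been seen. It occurred at 5 of the 27025 genes with a promoter entry (0.0185%), and 4 of the 5 were tested here: Abca1, Acsl3, Fasn and Srebf1. All 4 were called higher with T0901317, against 985 of the 10846 tested genes with a promoter entry that were called higher, and none of the 353 called lower held it. Because the sequences had been seen before the form was chosen, these counts are a description and not a test. A match describes these letters only and is not evidence of binding. Stretches of the gene strand around the match are shown for 3 of them because they carry nearly the same letters in genes of different function, a lipid transporter, an enzyme and a transcription factor. Capitals mark the match, which begins 182 bases before a start of Srebf1, 67 before that of Abca1 and 225 before that of Fasn. The positions are chr11:60210619-60210673 for Srebf1, chr4:53159928-53159982 for Abca1 and chr11:120824738-120824792 for Fasn, all on the minus strand.
Srebf1: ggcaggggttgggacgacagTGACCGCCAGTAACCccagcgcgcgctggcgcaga
Abca1: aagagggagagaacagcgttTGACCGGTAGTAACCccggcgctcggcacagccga
Fasn: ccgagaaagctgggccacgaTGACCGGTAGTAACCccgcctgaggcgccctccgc

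The genes for the receptors were not called. Nr1h3, which encodes LXRalpha, was at 87.8, 82.9, 90.7 and 85.9 TPM with T0901317 and 83.1, 105, 106 and 101 TPM with vehicle, a difference of -0.18 ± 0.10 (adjusted p = 0.31, limma). The ranges overlapped through vehicle replicate 1 alone. Nr1h2, which encodes LXRbeta, was at 23.7, 24.7, 26.1 and 23.8 TPM and 22.2, 23.4, 23.1 and 23.5 TPM, and its difference of 0.09 ± 0.10 was not called either, although the 4 and 4 values did not overlap. Of 22 receptors, partners and cofactors tested, 1 was higher and 1 lower, beside 7.87% and 2.91% of all genes. Tbl1xr1, a corepressor subunit, was the one called higher at 0.34 ± 0.08 (adjusted p = 0.0060), a call that was lost in a fit of only the 8 libraries. Crebbp, a histone acetylase that serves as coactivator, was the one called lower at -0.29 ± 0.08, not called without T0901317 replicate 4 or vehicle replicate 1 or 4 (adjusted p 0.051 to 0.068) or in that fit.

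More genes known as LXR targets were higher than lower with T0901317, by uneven amounts. Of 26 tested, 15 were called higher and 1 lower, with a median difference of 0.67 beside 0.06 over all genes, and 22 of 26 differences were positive. The counts were 14 and 0 without T0901317 replicate 2 or vehicle replicate 1 and 15 and 0 without vehicle replicate 4, the lower gene being Apoc4, an apolipoprotein, at -0.28 ± 0.09, which was not called without T0901317 replicate 2 or 3 or any 1 vehicle library (adjusted p 0.055 to 0.17). Among the sterol transporters, Abca1, which loads cholesterol onto lipid-poor apolipoprotein A-I, was at 51.9, 48.3, 55.8 and 53.4 TPM with T0901317 and 27.9, 30.8, 26.3 and 35.3 TPM with vehicle. No T0901317 value reached down to the vehicle range, and the difference was 0.78 ± 0.15 (adjusted p = 0.00052). Abcg1, which passes cholesterol to HDL, was at 13.1, 22.7, 18.1 and 19.3 TPM against 5.28, 7.44, 5.25 and 8.07 TPM, a difference of 1.36 ± 0.24 (adjusted p = 0.00015) without overlap. Abcg5 and Abcg8, whose products form the pump that secretes sterols into bile, were not called. Abcg5 was at 319, 448, 344 and 409 TPM against 292, 302, 233 and 332 TPM, and vehicle replicate 4 lay above T0901317 replicate 1. Its difference was 0.39 ± 0.23 and that of Abcg8 was 0.48 ± 0.27 (adjusted p = 0.35 and 0.31). Against chow, where the cohort also differs, Abcg5 stood at 81.5 ± 18.7 TPM, below every mouse on the MASH diet.

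Genes of lipid transfer and lipolysis on this list had larger differences. Pltp, which encodes the phospholipid transfer protein of plasma, was at 259, 363, 258 and 227 TPM with T0901317 and 16.9, 38.7, 39 and 19.1 TPM with vehicle, 9.74-fold higher by the ratio of means. The difference was 3.32 ± 0.37 on the log2 scale (adjusted p = 1.4e-07), and the lowest T0901317 value was far above the highest vehicle value. Lpl, which encodes lipoprotein lipase, an enzyme that adult hepatocytes hold at a low level, was at 97.1, 123, 76.3 and 128 TPM against 9.63, 17.6, 23.1 and 12.4 TPM. Its difference of 2.72 ± 0.30 (adjusted p = 1.3e-07) was again without overlap. Lpcat3, which puts polyunsaturated chains into phospholipids, was at 210.4, 219, 174 and 186 TPM against 111, 103, 83 and 95.8 TPM. The groups were far apart relative to their spread, with a difference of 1.00 ± 0.14 (adjusted p = 5.8e-06). Mylip, an E3 ubiquitin ligase gene of lipoprotein uptake, was not called at 0.46 ± 0.18 (adjusted p = 0.094), and without T0901317 replicate 1, its lowest value, it was called at 0.60 (adjusted p = 0.031). Mlxipl, which encodes the carbohydrate-responsive factor ChREBP, was called at 0.50 ± 0.17 (adjusted p = 0.045) with overlapping values, and the call was lost without T0901317 replicate 1, 2 or 4 or vehicle replicate 1, 2 or 3 (adjusted p 0.061 to 0.19).

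Genes of fatty acid synthesis formed the group with the highest median difference among the 31 lists examined. Of 37 tested, 30 were called higher and none lower, 29 were without overlap beside 16.5% of all genes, and the median was 1.35. The count was 28 without T0901317 replicate 2 or vehicle replicate 1 and 31 without vehicle replicate 4. Srebf1 was at 635, 662, 710.1 and 694 TPM with T0901317 and 365, 441, 186 and 599 TPM with vehicle, with chow at 123 ± 7.66 TPM. The T0901317 values lay close together and just above vehicle replicate 4, while vehicle replicate 3 was the lowest. The difference was 0.88 ± 0.22 (adjusted p = 0.0060), which was 0.56 without vehicle replicate 3, and it was not called in a fit of only the 8 libraries (adjusted p = 0.14). The deposited values are per gene, so the transcripts for SREBP-1a and SREBP-1c cannot be told apart.

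Along the pathway, Acly, which makes cytosolic acetyl-CoA from citrate, was at 339.8, 279.6, 339 and 267 TPM against 85.9, 113, 35 and 136 TPM, a difference of 1.87 ± 0.26 (adjusted p = 6.2e-06). Acaca, which encodes the acetyl-CoA carboxylase that feeds synthesis, was at 60.6, 47, 50.1 and 48.1 TPM against 10.5, 13.6, 6.93 and 12.7 TPM, a difference of 2.17 ± 0.18 (adjusted p = 3.7e-10). For Acaca, 30.4% of the exon sequence is also found in other annotated genes, so its level is uncertain. Acacb, the mitochondrial isoform, was at 102, 104, 96.6 and 76.7 TPM against 13.5, 23.9, 10.1 and 10.9 TPM, and Fasn, the synthase that assembles palmitate, at 944, 1020.5, 775 and 625 TPM against 150.4, 193, 31.2 and 302 TPM. None of these 4 genes had overlapping values, and the differences of the last pair were 2.69 ± 0.28 and 2.67 ± 0.41 (adjusted p = 3.2e-08 and 2.9e-05). Vehicle replicate 3 was the lowest vehicle mouse for all 4, at 31.2 TPM for Fasn where the others were at 150 to 302 TPM, and over the whole list it was the lowest for 16 of 37 genes.

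Other enzymes on the list lengthen or desaturate the chains or supply NADPH. Elovl6, which extends palmitate, was at 203, 172, 172 and 149 TPM against 49.7, 36.3, 13.8 and 38 TPM, 5.05-fold higher by the ratio of means. Scd1, the main hepatic desaturase, was the most abundant of the group at 22177, 22058, 21512 and 21335 TPM against 5889, 11171, 8114 and 6408 TPM. The 4 T0901317 livers lay within a narrow range, and the difference was 1.51 ± 0.30 (adjusted p = 0.00064). Scd2, a desaturase that adult liver holds at a low level, rose from 2.23, 2.73, 2.27 and 3.37 TPM to 68.2, 91.9, 65.1 and 43.3 TPM, 25.3-fold by the ratio of means and 4.18 ± 0.32 on the log2 scale (adjusted p = 4.5e-11). G6pdx, which supplies NADPH from glucose 6-phosphate, was at 55.1, 38.2, 41.8 and 46.6 TPM against 1.81, 2.92, 3.37 and 5.26 TPM, a difference of 3.47 ± 0.27 (adjusted p = 1.5e-10). Thrsp, which encodes the lipogenic protein Spot 14, was at 2724, 2008, 2415 and 1813 TPM against 1464, 712, 105 and 1085 TPM. Its values did not overlap, yet it was not called at 1.91 ± 0.67 (adjusted p = 0.063), where the SE rests on all groups of the fit. Without vehicle replicate 1 or 4 it was called (2.35 and 2.20, adjusted p = 0.031 and 0.049). Its difference was 1.09 without vehicle replicate 3, and it was called with the replicate block (adjusted p = 0.0099).

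**Figure D2:**
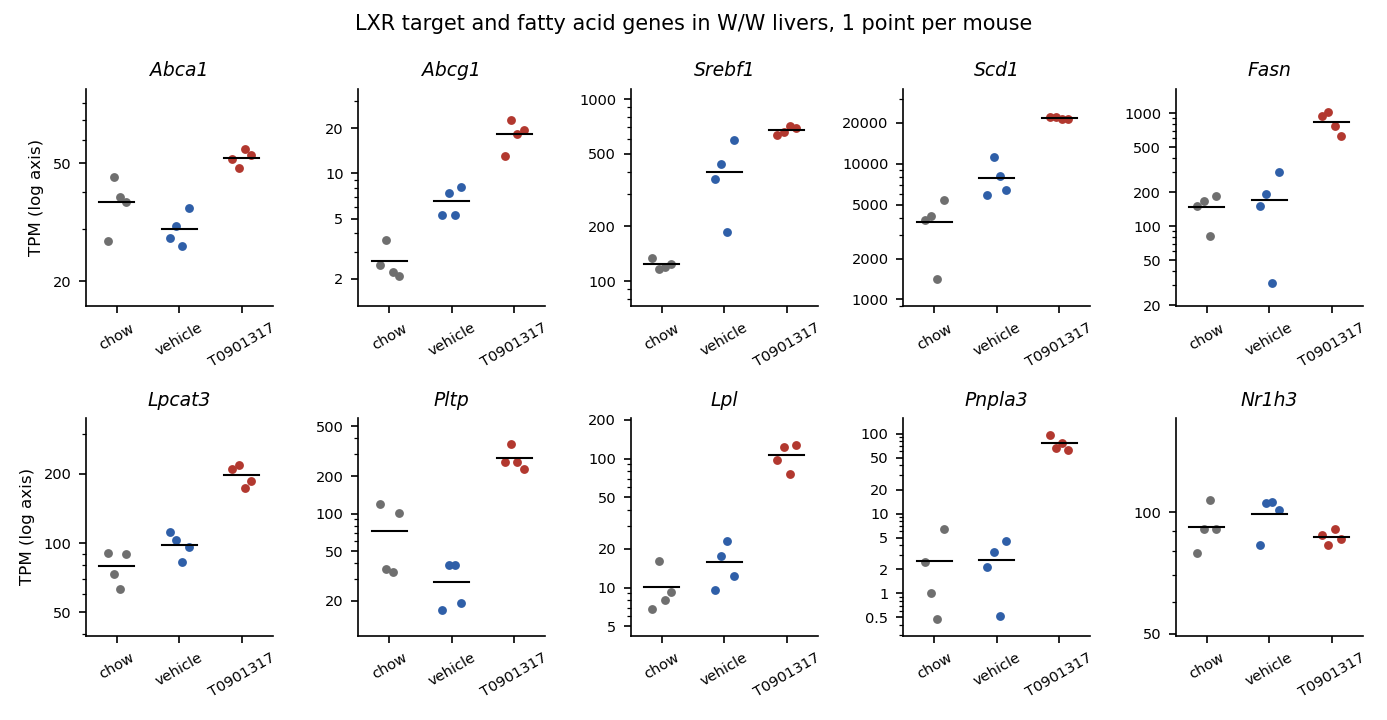
Points are single W/W mice from 3 groups, chow, vehicle on the MASH diet and T0901317 on that diet, bars are group means, and the y axes are TPM on log axes that differ between panels. The T0901317 mice lie above all vehicle mice for Abca1, Abcg1, Srebf1, Scd1, Fasn, Lpcat3, Pltp, Lpl and Pnpla3 and overlap them for Nr1h3.

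Genes of triglyceride storage and lipid droplets were also raised in part. Of 41 tested, 23 were called higher and none lower, with a median of 0.42, and the count was 20 without T0901317 replicate 2, 22 without vehicle replicate 1 and 21 without vehicle replicate 4. Pnpla3, which encodes a lipid droplet protein that restrains lipolysis, was at 97.7, 66.6, 76.2 and 62.8 TPM with T0901317 and 2.16, 3.34, 0.521 and 4.49 TPM with vehicle. It was 28.9-fold higher by the ratio of means and differed by 4.53 ± 0.33 on the log2 scale (adjusted p = 3.5e-11), the second largest rise among genes of at least 5 TPM. Mir6392, a microRNA hairpin gene at chr15:84168270-84168377 on the plus strand (GRCm38), lies inside Pnpla3 on the same strand outside its exons and was at 44.5, 22, 23.9 and 30.8 TPM against 0, 2.81, 0 and 0.909 TPM. Reads from the hairpin and from unspliced Pnpla3 RNA cannot be told apart in these values. Pnpla5, a related lipase gene, was at 20.4, 13.4, 13.2 and 11.1 TPM against 0.609, 1.08, 0.0595 and 0.464 TPM, a difference of 3.33 ± 0.19 (adjusted p = 2.5e-13).

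Other members of the list act at the droplet surface or in triglyceride synthesis. Plin2, the perilipin that covers droplets in hepatocytes, was at 794, 937, 635 and 643 TPM against 248, 314, 350.0 and 223 TPM, a difference of 1.41 ± 0.18 (adjusted p = 1.9e-06). Cidec, which enlarges droplets by fusing them, was at 129.8, 164, 93.1 and 86.2 TPM against 24.6, 35.8, 33.5 and 13.2 TPM, a difference of 2.15 ± 0.30 (adjusted p = 5.2e-06), and chow mice were at 7.65 ± 3.41 TPM. Mogat1, which makes diacylglycerol from monoacylglycerol, was at 20.2, 24.4, 18.2 and 15.2 TPM against 3.51, 2.92, 5.24 and 2.27 TPM and differed by 2.22 ± 0.26. None of these 3 genes overlapped between the groups. Cidea, a relative of Cidec, was at 2.56, 11.1, 0.674 and 2.06 TPM against 1.15, 0.87, 1.3 and 0 TPM and was called at 1.14 ± 0.32 (adjusted p = 0.017), with T0901317 replicate 2 far above the others. Without that library it differed by 0.59 (adjusted p = 0.12), and without vehicle replicate 4 by 0.88 (adjusted p = 0.094).

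Of 23 genes of phospholipid remodelling, 6 were called higher and none lower, with a median of 0.09, among them Pltp and Lpcat3. Pla2g6, a calcium-independent phospholipase, was at 55.5 ± 9.35 TPM against 30.4 ± 4.39 TPM (mean ± SD, n = 4 each) and differed by 0.84 ± 0.14 (adjusted p = 4.8e-05). Pcyt1a, which controls the rate of phosphatidylcholine synthesis, differed by 0.55 ± 0.14 (adjusted p = 0.0076) with overlapping values, and was not called in a fit of only the 8 libraries.

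Among 32 genes of lipoproteins and plasma lipases, 6 were higher and 6 lower, with a median of -0.01. Apoa4, whose product rides on triglyceride-rich particles, was at 1446, 1923, 1059 and 1056 TPM with T0901317 and 258, 469, 483 and 215 TPM with vehicle, a difference of 1.98 ± 0.32 (adjusted p = 4.4e-05). Other annotated genes overlap 69.8% of its exons, so this level is uncertain where strand was not used in counting. Among the lower genes, Apoa1, the main HDL protein, was at 11941, 10798, 9630.0 and 10626 TPM against 15891, 15623, 14906 and 14593 TPM and differed by -0.51 ± 0.11 (adjusted p = 0.0024), and Lcat, which esterifies HDL cholesterol, differed by -0.60 ± 0.08 (adjusted p = 5.2e-06), both without overlap. Apof was lower by a similar amount at -0.44 ± 0.10. The count of lower genes was 3 without T0901317 replicate 2 and 4 without vehicle replicate 1 or 4.

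Every tested gene of cholesterol synthesis and uptake had a positive difference, 34 of 34, and 27 were called higher, with a median of 1.09. The count was 25 without T0901317 replicate 2, 24 without vehicle replicate 1 and 27 without vehicle replicate 4. The genes of cholesterol synthesis are known targets of SREBP-2, the sterol-sensing transcription factor, and are known to fall in livers loaded with cholesterol. This does not cover every member, since the list also holds Mylip, which is on the LXR target list. Levels on chow add to the picture, with the reservation that the vehicle mice enter both comparisons and that the chow mice were another cohort. Of the 27 genes, 25 had a lower mean with vehicle than on chow and 22 were called so, where 10.3% of all genes were called lower. With vehicle 0 of the 27 were called higher than chow, beside 2.59% of all genes. With T0901317, 7 had a mean above chow. In that comparison 4 were called higher than chow and 14 lower, beside 10.3% and 12.8% of all genes.

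Sqle, which encodes squalene epoxidase, a rate-controlling step of the pathway, was at 35.4, 30.9, 30.7 and 27.8 TPM with T0901317, 1.9, 3.1, 2.09 and 2.48 TPM with vehicle and 69.2 ± 14.1 TPM (mean ± SD) on chow. The difference of T0901317 and vehicle was 3.26 ± 0.17 (adjusted p = 2.1e-14), and T0901317 mice were between the other groups without overlap. Fdps, which makes farnesyl diphosphate, was at 138, 146, 127 and 100.2 TPM against 15.6, 18.6, 10.2 and 17.2 TPM, with chow at 133 ± 32.8 TPM, though 26.2% of its exon sequence occurs in other genes and 26.7% of it is overlapped by them. Mvd, which makes isopentenyl diphosphate, was at 51.2, 38.8, 37.4 and 36.2 TPM against 4.55, 6.32, 4.12 and 3.86 TPM, with chow at 43.5 ± 10.2 TPM, and Nsdhl, a sterol dehydrogenase, at 64.4, 50.6, 55.3 and 53.8 TPM against 10.02, 14.4, 10.1 and 11.4 TPM, with chow at 100 ± 6.86 TPM. The differences were 2.99 ± 0.22, 2.88 ± 0.24 and 2.20 ± 0.15 for the last 3 genes, and the T0901317 mean stood near the chow mean for Fdps and Mvd and below it for Nsdhl.

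**Figure D3:**
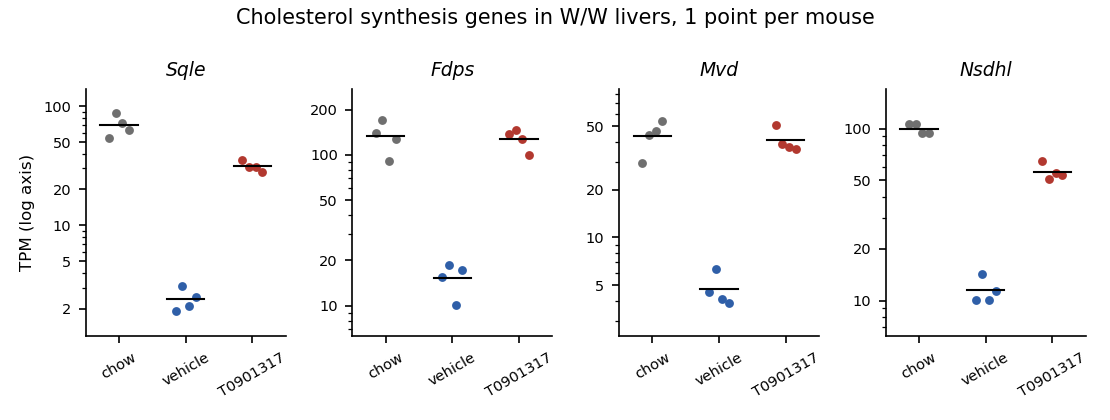
Points are single W/W mice from 3 groups, chow, vehicle on the MASH diet and T0901317 on that diet, bars are group means, and the y axes are TPM on log axes that differ between panels. All T0901317 mice lie above all vehicle mice for these 4 genes, and for Sqle and Nsdhl they also lie below all chow mice.

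Promoters of this list share a motif that the choice of members did not use. CCAAT, the letters bound by the factor NF-Y, which acts beside SREBP-2 at many sterol genes, occurred on either strand in the 250 bases before a start for 21 of the 23 tested members with a promoter entry (91.3%). The share was 39.9% of all 10846 tested genes with an entry, 43.8% of the 985 called higher and 47.6% of the 353 called lower. Other lists were also above the share of all genes. In falling order, 16 of 19 proliferation genes (84.2%), 20 of 26 unfolded protein response genes (76.9%), 14 of 21 urea cycle and amino acid genes (66.7%), 11 of 17 clock genes (64.7%) and 20 of 33 fatty acid genes (60.6%) held it. TCACNCCAC, a form of the sterol regulatory element, was found for 1 of the 23 and for 1.36% of tested genes. Mvd and Nsdhl are shown because they had the largest differences in the list after Sqle and Fdps and an entry in the promoter table. Capitals mark CCAAT, or ATTGG where it lies on the other strand, and each promoter holds 2 matches, which begin 60 and 27 bases before the start for Mvd and 109 and 20 bases before it for Nsdhl. The stretches are chr8:122443423-122443672 on the minus strand for Mvd and chrX:72918271-72918520 on the plus strand for Nsdhl (GRCm38.p6).
Mvd: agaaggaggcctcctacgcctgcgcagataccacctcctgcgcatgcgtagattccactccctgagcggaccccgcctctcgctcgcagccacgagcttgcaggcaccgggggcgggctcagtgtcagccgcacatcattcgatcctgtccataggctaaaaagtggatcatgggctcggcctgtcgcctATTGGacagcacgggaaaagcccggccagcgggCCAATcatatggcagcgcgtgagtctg
Nsdhl: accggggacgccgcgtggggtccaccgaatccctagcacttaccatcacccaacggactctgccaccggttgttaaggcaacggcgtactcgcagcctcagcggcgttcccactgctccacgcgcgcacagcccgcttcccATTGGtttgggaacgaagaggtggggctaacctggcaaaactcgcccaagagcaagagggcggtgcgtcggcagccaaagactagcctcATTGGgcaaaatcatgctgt

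Bile acid genes were divided. Of 34 tested, 4 were higher and 5 lower, with a median of -0.02. Cyp7a1, the rate-limiting enzyme of bile acid synthesis and a known LXR target in mice, was at 120.5, 69.1, 143 and 219.8 TPM with T0901317 and 62.5, 90.1, 14 and 63.7 TPM with vehicle. The values overlapped, since T0901317 replicate 2 was below vehicle replicate 2. The call at 1.40 ± 0.45 (adjusted p = 0.041) was lost without T0901317 replicate 1, 3 or 4 (adjusted p 0.066 to 0.16), without vehicle replicate 3, its lowest value (0.83, adjusted p = 0.25), and in a fit of only the 8 libraries (adjusted p = 0.20). Cyp8b1, which sets the share of cholic acid, was at 312 ± 67.8 TPM against 280.4 ± 60.1 TPM and was not called at 0.15 ± 0.31 (adjusted p = 0.84).

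The list also held transporters that were called. Abcc4, an exporter of the sinusoidal membrane, was at 4.47, 7.29, 4.69 and 5.85 TPM against 0.45, 0.866, 0.791 and 0.754 TPM, a difference of 1.93 ± 0.28 (adjusted p = 1.3e-05). Slco1a4, an uptake carrier, was higher by 1.21 ± 0.27 and Slco1a1, a carrier that male mice express more, differed by -1.72 ± 0.40, both without overlap, though Slco1a4 was not called in a fit of only the 8 libraries. Baat, which joins bile acids to taurine, Akr1c6, an aldo-keto reductase, and Fgfr4, the receptor for the intestinal hormone FGF15, differed by -0.57 ± 0.09, -0.66 ± 0.12 and -0.67 ± 0.12, each lower without overlap, as was Hsd3b7, an enzyme of bile acid synthesis, at -0.45 ± 0.12, a call lost without T0901317 replicate 2 or vehicle replicate 3 or 4 (adjusted p 0.054 to 0.062) and in a fit of only the 8 libraries. Hsd17b4, a peroxisomal enzyme of side-chain shortening, was higher by 0.45 ± 0.10.

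Genes known to respond to PXR and its relative CAR (the constitutive androstane receptor) were higher for 21 of 46 tested and lower for 1, with a median of 0.70. The counts were 18 and 0 without T0901317 replicate 2 or vehicle replicate 4 and 19 and 0 without vehicle replicate 1. The lower gene was Nr1i3, which encodes CAR, at -0.92 ± 0.31 (adjusted p = 0.0498), a call lost in 7 of 8 leave-one-out fits (adjusted p 0.068 to 0.14), and other genes overlap 74.8% of its exons. Cyp3a11 and Cyp2b10 were not among those called, while Slco1a4, an uptake carrier also on this list, was called higher. Cyp3a11, the best known PXR target, was at 2921, 2869, 3168 and 2784 TPM with T0901317 and 1126, 1544, 1388 and 1065 TPM with vehicle. Its values did not overlap, and it was not called in the fit of all 36 libraries at 1.21 ± 0.47 (adjusted p = 0.10) but was called in a fit of the 8 libraries (adjusted p = 0.0020). Cyp2b10, the best known CAR target, was at 12.4, 23.4, 12.1 and 11.5 TPM against 10.6, 9.39, 12.1 and 4.19 TPM and was not called at 0.68 ± 0.56 (adjusted p = 0.53), with T0901317 replicate 2 well above the other 3.

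The called members included 6 that are also on the list of the antioxidant factor Nrf2 or on the female-biased list. Cyp2a4, a cytochrome of steroid hydroxylation that female mice express more, had the largest rise of all genes of at least 5 TPM, at 75.5, 174, 87.7 and 55.3 TPM against 2.08, 1.22, 1.8 and 0.791 TPM. The ratio of means was 66.7-fold and the difference 5.22 ± 0.51 (adjusted p = 9.8e-09), with 38.0% of its exon sequence also found in other genes. Gstm3, a glutathione transferase, was at 322, 1230.4, 243 and 317 TPM against 19.8, 48.1, 24.2 and 41.2 TPM, a difference of 3.70 ± 0.52 (adjusted p = 7.1e-06), with replicate 2 far above the others and 28.8% of its sequence shared. Akr1b7, an aldose reductase of lipid aldehydes, rose from 0.403, 0.316, 0.315 and 0.767 TPM to 13.9, 23, 12.1 and 14.1 TPM, a difference of 3.50 ± 0.30 (adjusted p = 7.6e-10). Gadd45b, a growth arrest and stress gene, was at 36.2, 46.2, 21.6 and 36.8 TPM against 2.53, 3.36, 3.66 and 1.71 TPM, a difference of 3.23 ± 0.23 (adjusted p = 1.5e-11). On the Nrf2 list, 9 of 25 were higher and 1 lower, with a median of 0.28, and Gstm2 was among the higher genes at 2.02 ± 0.24. T0901317 replicate 2 was the highest T0901317 mouse for 18 of the 25 and vehicle replicate 1 the lowest vehicle mouse for 20 of them. The count of higher genes was 7 without either of these or without vehicle replicate 4. The lower gene was Gclm, a subunit of the enzyme that starts glutathione synthesis, at -0.32 ± 0.09, not called without T0901317 replicate 2 or 4 or vehicle replicate 2 or 3 (adjusted p 0.069 to 0.11).

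Genes known to respond to PPARalpha, the nuclear receptor for fatty acids, and genes of fatty acid oxidation were higher for 24 of 42 tested and lower for none, with a median of 0.55. Leaving out 1 library gave 16 to 24, with 16 without vehicle replicate 4, 19 without vehicle replicate 1 and 20 without T0901317 replicate 2. Ehhadh, the bifunctional enzyme of peroxisomal oxidation, was at 2723, 3420.2, 2073 and 2327 TPM with T0901317 and 437, 625, 581 and 390.2 TPM with vehicle, a difference of 2.37 ± 0.20 (adjusted p = 3.7e-10). Cyp4a31, a fatty acid hydroxylase, was at 68.8, 126, 69.2 and 57.2 TPM against 5.59, 8.19, 14.7 and 4.31 TPM, a difference of 3.20 ± 0.40 (adjusted p = 1.3e-06), and 20.6% of its sequence is shared with other genes. Pdk4, which closes pyruvate dehydrogenase, was at 19.8, 28.5, 9.38 and 8.63 TPM against 2.5, 3.11, 2.44 and 1.09 TPM, a difference of 2.30 ± 0.45 (adjusted p = 0.00068). Cpt1a, the entry step of mitochondrial oxidation, was called at 0.48 ± 0.14 (adjusted p = 0.026) with overlapping values, and the call was lost without T0901317 replicate 3 or 4 or vehicle replicate 1, 3 or 4 (adjusted p 0.063 to 0.11). Vehicle replicate 4 was the lowest vehicle mouse for 27 of the 42 genes and vehicle replicate 2 the highest for 22.

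Glucose metabolism had 8 of 43 genes higher and 2 lower, beside 7.87% and 2.91% of all genes, with a median of 0.22. G6pc, which releases free glucose, was at 367, 283, 312 and 279.6 TPM against 461, 243, 87.5 and 587 TPM, with the 4 vehicle mice spread on either side of the T0901317 mice and no call at 0.16 ± 0.42. Pdk1 and Pdha1, a kinase and a subunit of pyruvate dehydrogenase, were higher by 0.99 ± 0.20 and 0.60 ± 0.10 without overlap (adjusted p = 0.0010 and 7.6e-05). Ldha, which makes lactate, and Fbp1, a gluconeogenic phosphatase, differed by -0.51 ± 0.12 and -0.39 ± 0.11. Both calls were lost in a fit of only the 8 libraries, and that of Fbp1 also without T0901317 replicate 2 (adjusted p = 0.097).

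In these male livers, part of the genes known to be expressed more in males fell and part of those known to be expressed more in females rose. Of 33 male-biased genes tested, 13 were called lower and 1 higher, with a median of -1.04 and 31 negative differences. Of 28 female-biased genes, 9 were higher and 1 lower, with a median of 0.55. The counts rest in part on T0901317 replicate 2, which was the lowest T0901317 mouse for 27 of the 33 male-biased genes and the highest for 16 of the 28 female-biased genes. Without it 10 male-biased genes were called lower and 5 female-biased genes higher, and the medians were -0.96 and 0.50. Without vehicle replicate 1 the counts were 11 and 8, and without vehicle replicate 4 they were 11 and 6. Sex bias in mouse liver is known to depend on the pattern of growth hormone release, which was not measured here.

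Serpina1e, a member of the alpha-1 antitrypsin cluster expressed in males, had the largest fall of all genes of at least 5 TPM, at 98.5, 61.9, 93.7 and 58 TPM with T0901317 and 4530.3, 2221, 1983 and 7408 TPM with vehicle. Its mean was 51.7-fold lower, the difference was -5.50 ± 0.57 (adjusted p = 4.2e-08), and chow mice were higher still at 17082 ± 7282 TPM. Because 34.6% of its sequence occurs in related genes, this level is uncertain. Mup21, a major urinary protein, was at 214, 94.6, 222 and 208 TPM against 979, 954, 1203 and 1474 TPM, a difference of -2.69 ± 0.54 (adjusted p = 0.00085). Slco1a1 was at 50.9, 24.6, 96.3 and 56.9 TPM against 139, 210.3, 145 and 202 TPM, again with replicate 2 the lowest. Serpina4-ps1, a pseudogene next to that cluster, was at 87, 7.31, 51.7 and 16.9 TPM against 497, 259, 108 and 366 TPM, a difference of -3.22 ± 0.74 (adjusted p = 0.0032). Mup1, of which 61.6% of the sequence is shared with other genes, fell from 45.4, 23.5, 28.7 and 49.5 TPM to 7.49, 1.23, 8.28 and 5.6 TPM. Hsd3b5, a male steroid dehydrogenase, was at 61.1, 7.4, 89.4 and 58.3 TPM against 213, 284, 257 and 311 TPM without overlap, and its call at -2.69 ± 0.90 (adjusted p = 0.049) was lost without T0901317 replicate 2 (-1.93, adjusted p = 0.23) and without each of the others but T0901317 replicate 3 (adjusted p 0.059 to 0.096).

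A male-biased gene that went the other way was Cyp4a12a, a fatty acid hydroxylase, at 541, 448, 532 and 509.7 TPM against 191, 249, 208 and 185 TPM. Its difference was 1.29 ± 0.37 (adjusted p = 0.020), 48.9% of its sequence is shared with other genes, and the call was lost without vehicle replicate 1 or 4 (adjusted p = 0.051 for both). Among female-biased genes, Cyp2a22 was at 14.7, 60.9, 21.5 and 30.8 TPM against 2.58, 4.85, 3.01 and 1.4 TPM and Cyp17a1, a steroid hydroxylase, at 27, 23.2, 26.2 and 22.2 TPM against 3.91, 5.28, 9.07 and 4.08 TPM. The differences were 2.94 ± 0.41 and 2.02 ± 0.49 (adjusted p = 5.8e-06 and 0.0053). The female-biased gene called lower was Cyp2d40, a cytochrome P450, at -0.89 ± 0.20. Acot3, a peroxisomal thioesterase also on the PPARalpha list, was called at 2.25 ± 0.65 with vehicle replicate 2 inside the T0901317 range, and the call was lost without T0901317 replicate 2 (2.16, adjusted p = 0.060) or vehicle replicate 4 (1.54, adjusted p = 0.13).

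**Figure D4:**
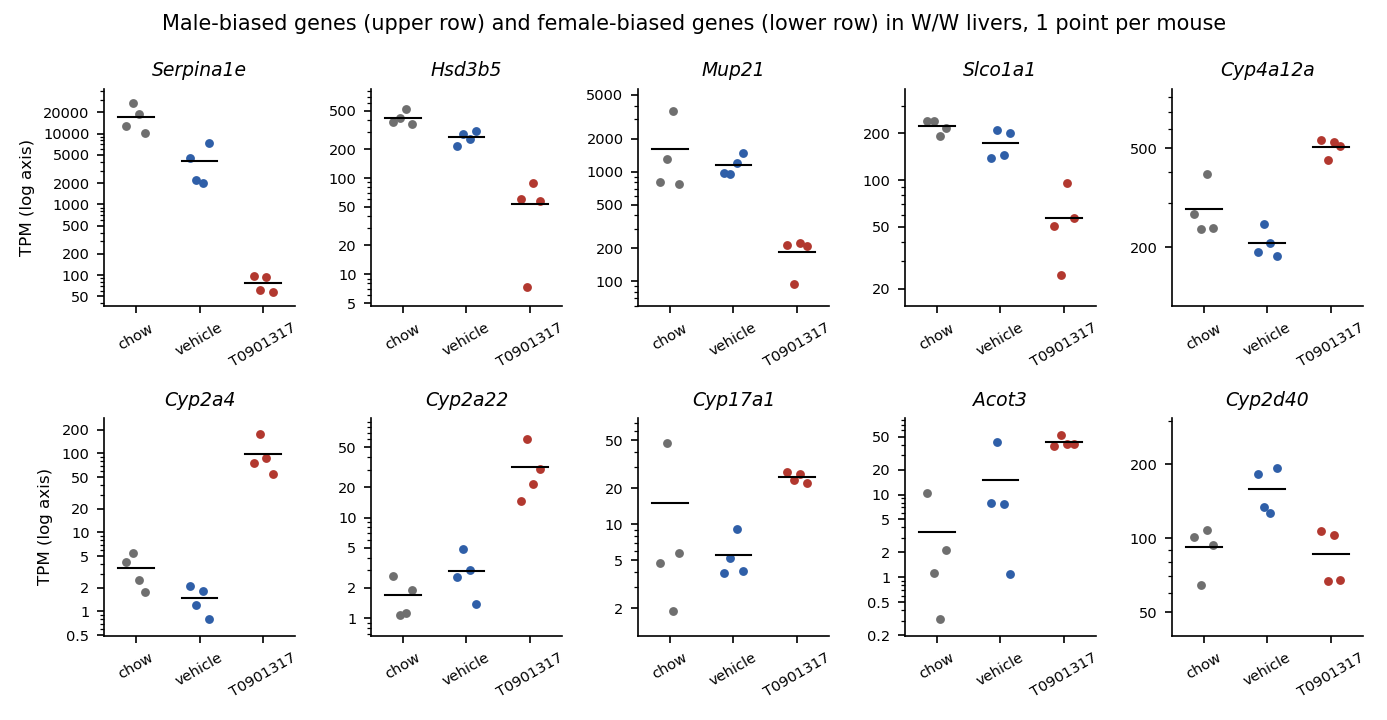
Points are single W/W mice from 3 groups, chow, vehicle on the MASH diet and T0901317 on that diet, bars are group means, and the y axes are TPM on log axes that differ between panels. The upper row shows 5 male-biased genes, of which Serpina1e, Hsd3b5, Mup21 and Slco1a1 lie lower and Cyp4a12a higher with T0901317, and the lower row 5 female-biased genes, of which Cyp2d40 lies lower.

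Genes of growth hormone signalling were lower for 4 of 18 and higher for 1, with a median of -0.23. Igf1, the main hormone released by liver in response to growth hormone, was at 67.7, 61, 73.9 and 66.4 TPM with T0901317 and 101, 104, 94 and 85.5 TPM with vehicle, a difference of -0.51 ± 0.12 (adjusted p = 0.0037) without overlap. Igfals, which holds IGF-1 in plasma complexes, was at 68.8, 53.1, 83.4 and 63.6 TPM against 111, 133, 139 and 103 TPM, a difference of -0.85 ± 0.18 (adjusted p = 0.0014). Igfbp4 was lower at -0.63 ± 0.11 and Igfbp3, another binding protein, higher by 0.82 ± 0.20, the second lost in a fit of only the 8 libraries. Ghr, the growth hormone receptor, was lower at -0.49 ± 0.14 (adjusted p = 0.021), and that call was lost without T0901317 replicate 2 (-0.38, adjusted p = 0.12) or vehicle replicate 4 (-0.44, adjusted p = 0.071).

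Among secreted factors, 7 of 28 hepatokines were lower and 3 higher, with a median of -0.17. Enho, which encodes adropin, was at 0.459, 0, 0.706 and 0.655 TPM with T0901317 and 6.99, 6.14, 4.29 and 9.83 TPM with vehicle, a difference of -2.41 ± 0.23 (adjusted p = 6.1e-09), and at 34.1 ± 12.4 TPM on chow. Inhbc, an activin subunit of the liver, was at 40.6, 40.4, 36.2 and 37.4 TPM against 72.4, 97.9, 117 and 86.9 TPM, a difference of -1.23 ± 0.18 (adjusted p = 8.8e-06). Ahsg, which encodes fetuin-A, and Agt, the precursor of angiotensin, were lower at -0.78 ± 0.11 and -0.65 ± 0.09, both without overlap. Hamp2, a relative of the iron hormone hepcidin, was at 268, 242, 315 and 384 TPM against 36.8, 33.6, 49.1 and 28.8 TPM, a difference of 3.00 ± 0.61 (adjusted p = 0.0010). Lepr, the leptin receptor, was higher by 1.20 ± 0.22.

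Acute phase and complement genes were lower for 6 of 41 and higher for 2, with a median of -0.09, and without T0901317 replicate 2 the counts were 3 and 0, and 5 and 1 without vehicle replicate 1 or 4. The terminal complement genes C8a, C8b and C9 were the clearest. C8a was at 136, 122, 178 and 166 TPM against 298, 405, 349.9 and 415 TPM, C8b at 120.4, 53.2, 125 and 99.4 TPM against 254, 229, 186 and 287 TPM, and C9 at 181, 171, 234 and 181 TPM against 469, 423, 399 and 521 TPM. The 3 differences were -1.29 ± 0.20, -1.31 ± 0.24 and -1.24 ± 0.22 (adjusted p = 2.4e-05, 0.00031 and 0.00023), none with overlap. All 3 remained called without T0901317 replicate 2. Orm3, an orosomucoid of the acute phase, went up by 1.75 ± 0.49 (adjusted p = 0.017), and that call was lost without T0901317 replicate 2 (1.59, adjusted p = 0.065) or without vehicle replicate 2 or 3 (adjusted p = 0.058 and 0.052).

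Markers of the cell types that a liver sample can hold were set beside these results, since in bulk tissue fewer cells of a type and less RNA per cell cannot be told apart. Hepatocyte markers summed to 86690.1 to 97852 TPM with T0901317 and 91184 to 114614 TPM with vehicle, and 5 of 14 were called lower, among them Serpina1c at -1.57 ± 0.15, which shares 74.2% of its sequence with related genes, and none higher. Of the 14 differences 12 were negative, with a median of -0.37. Kupffer cell markers were called for 0 of 17, at sums of 429.9 to 792 TPM against 431 to 594 TPM, and 12 of the 17 differences were positive. Their part in the results above was not tested.

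Of 29 markers of recruited and lipid-associated macrophages, 6 were called higher and none lower, with 22 of 29 differences positive and a median of 0.24, which was 0.04 without T0901317 replicate 2. The count was 5 without T0901317 replicate 2, 4 without vehicle replicate 1 and 6 without vehicle replicate 4. The summed level was 777 to 1042 TPM with T0901317 and 339 to 465 TPM with vehicle, and without Fabp5 it was 619 to 871 TPM against 330 to 449 TPM. Fabp5, a fatty acid binding protein of macrophages, keratinocytes and other cells, was at 203, 171, 189 and 142 TPM against 8.79, 14.6, 10.8 and 16.1 TPM, a difference of 3.73 ± 0.36 (adjusted p = 1.1e-08). Gpnmb and Trem2, known from lipid-associated macrophages and chosen after their values were seen, were not called. Gpnmb was at 0.57, 2.76, 0.963 and 0.595 TPM against 0.491, 0.482, 0.711 and 3.05 TPM and Trem2 at 0.471, 1.66, 0.43 and 0.485 TPM against 0.334, 0.307, 0.428 and 0.814 TPM. Cd63, a lysosomal tetraspanin, and Spp1, osteopontin, were higher by 1.46 ± 0.34 and 1.15 ± 0.29 without overlap. Cd9, another tetraspanin, was higher by 1.05 ± 0.27, and was not called without vehicle replicate 1 (0.80, adjusted p = 0.059). Ccl2, a chemokine that draws monocytes, was at 1.28, 4.09, 2.07 and 1.62 TPM against 0.453, 1.16, 0.708 and 1.99 TPM and was not called at 0.64 ± 0.56 (adjusted p = 0.57).

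Markers of stellate cells and fibrosis had 30 of 31 positive differences, and 9 were called higher and none lower, with a median of 0.57. T0901317 replicate 2 was the highest T0901317 mouse for 31 of 31 of them and vehicle replicate 4 the highest vehicle mouse for 27 of 31. The summed level was 294, 592, 380 and 340 TPM with T0901317 and 200, 238, 234 and 308 TPM with vehicle. Without T0901317 replicate 2, 7 were called and the median was 0.38. The count was 7 without vehicle replicate 1, 11 without vehicle replicate 4 and 5 in a fit of only the 8 libraries. Col1a1, the main chain of fibrillar collagen, was at 9.77, 31.2, 17.4 and 7.63 TPM against 2.4, 2.76, 1.96 and 8.44 TPM, with vehicle replicate 4 inside the T0901317 range. It was called at 1.82 ± 0.39 (adjusted p = 0.0019) but not in a fit of only the 8 libraries (adjusted p = 0.069). Col3a1 was at 14.9, 36.9, 25.9 and 16.1 TPM against 3.99, 5.89, 4.2 and 11.2 TPM, a difference of 1.75 ± 0.35 (adjusted p = 0.00078), and Sparc, a matrix protein that binds collagen, at 48.1, 96.4, 59.6 and 47.9 TPM against 24.9, 27.6, 22.7 and 30.2 TPM, a difference of 1.17 ± 0.23 (adjusted p = 0.00073).

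The other cell type lists held few calls: 1 of 18 endothelial markers (Lyve1, not called without T0901317 replicate 2 or 4 or vehicle replicate 4, adjusted p 0.061 to 0.093) and 1 of 15 bile duct markers (Spp1) higher, 1 of 14 lymphocyte markers lower (Cd4, not called without T0901317 replicate 1 or 4 or vehicle replicate 1 or 4, adjusted p 0.054 to 0.099), and none of 11 neutrophil markers. Over all genes tested, 7.87% were called higher and 2.91% lower. Among 24 proliferation genes 3 were higher, and without T0901317 replicate 2 or vehicle replicate 1 or 3 the count was 1. Mcm2 and Mcm6, parts of the replication helicase, were among the 3. The Mcm2 call was lost whichever of the 8 libraries was left out (adjusted p 0.0502 to 0.14), with the replicate block and with voom on recovered reads. That of Mcm6 was lost without T0901317 replicate 2 (adjusted p = 0.076), without vehicle replicate 1 or 3 (adjusted p = 0.054 and 0.059) and with voom. Ccnd1, cyclin D1, which opens the cell cycle, was at 42.6, 43.9, 52.6 and 39.4 TPM against 3.9, 10.9, 7.51 and 8.84 TPM, a difference of 2.44 ± 0.27 (adjusted p = 1.4e-07). Mki67, which marks cycling cells, was at 0.506, 1.1, 0.657 and 0.78 TPM against 0.113, 0.201, 0.14 and 0.225 TPM, apart but low, and was not called (adjusted p = 0.15), though it was with a pseudocount of 0.1 (adjusted p = 0.012) and in a fit of only the 8 libraries (adjusted p = 0.015).

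**Figure D5:**
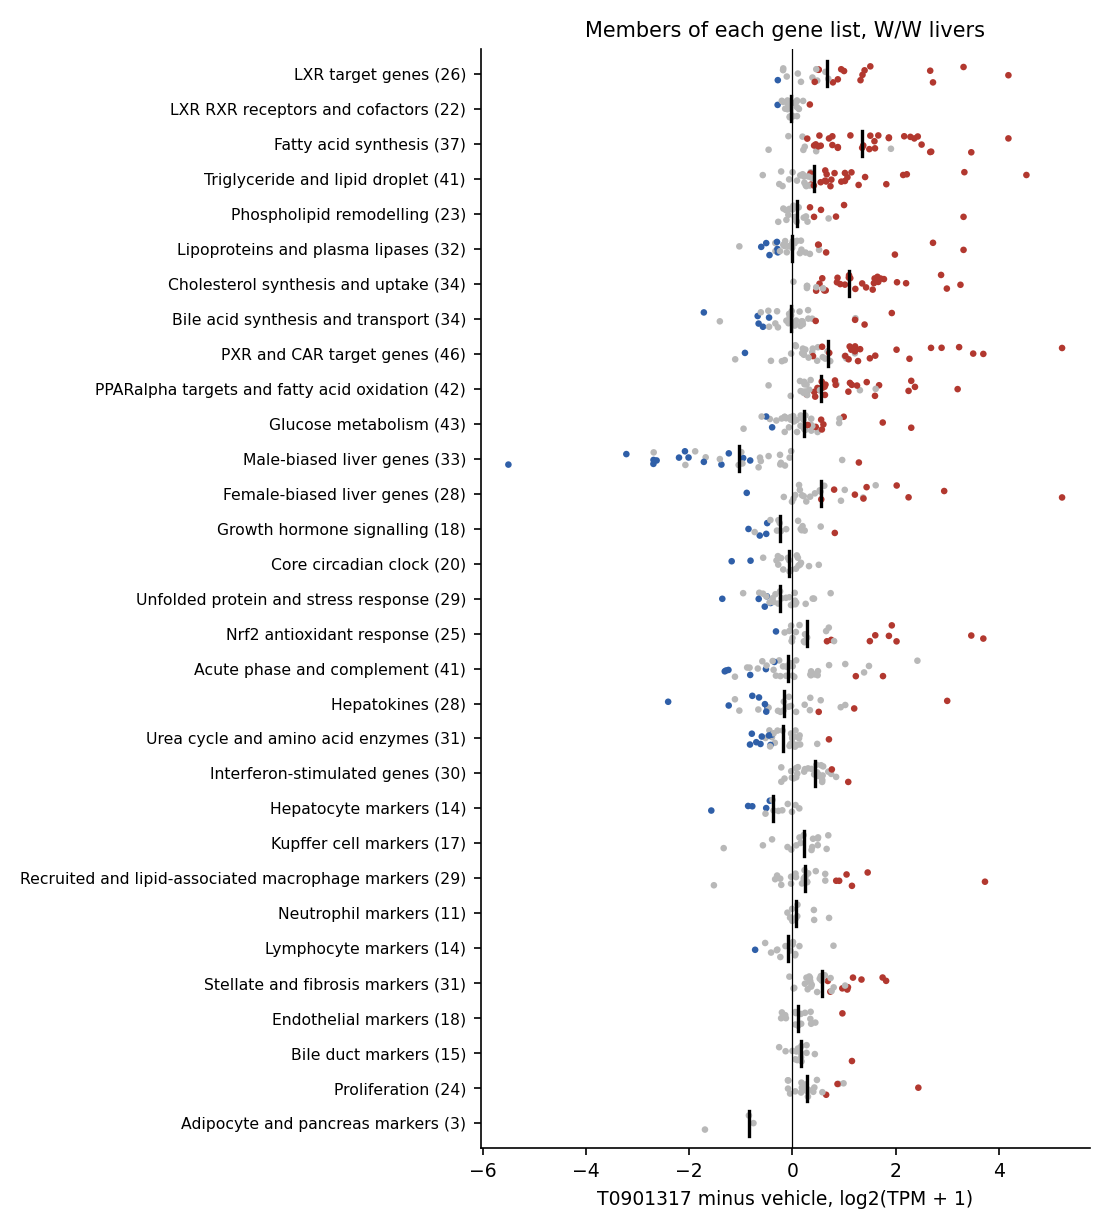
Each point is the difference T0901317 minus vehicle (log2 of TPM + 1) of 1 tested member of a gene list, with the number tested in brackets, red if called higher, blue if called lower and grey if not called, and black bars are medians. Fatty acid synthesis and cholesterol synthesis have the highest medians, 1.35 and 1.09, and male-biased genes the lowest, -1.04.

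Several of the largest differences belonged to genes outside these lists. Ly6d, a small membrane-anchored surface protein gene of the Ly6 family, was at 123, 169, 126 and 62.2 TPM with T0901317 and 2.91, 5.85, 4.74 and 3.17 TPM with vehicle, 28.8-fold higher by the ratio of means and 4.50 ± 0.51 on the log2 scale (adjusted p = 1.6e-07). Chrna4, a subunit of neuronal nicotinic acetylcholine receptors, was at 20.8, 22.6, 14.7 and 21 TPM against 0.226, 0.665, 0.461 and 0.508 TPM, a difference of 3.82 ± 0.32 (adjusted p = 6.7e-10). Chow mice were at 6.65 ± 3.71 TPM, between these groups. Gm28548, an unnamed noncoding gene at chr9:104361832-104385031 on the plus strand (GRCm38), was at 15.7, 11.6, 10.4 and 9.93 TPM with T0901317 and at 0 in all 4 vehicle mice, and was above 0 in 1 of 4 chow mice. Set against a floor of 3 reads in each vehicle library it was at least 16.1-fold higher, a bound that covers counting error only.

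Slc22a7, which encodes the organic anion transporter OAT2, fell from 70.2, 57.8, 31.6 and 61.5 TPM to 4.5, 1.83, 3.85 and 3.17 TPM, 16.6-fold by the ratio of means and -3.68 ± 0.28 on the log2 scale (adjusted p = 4.3e-11). Nnmt, which methylates nicotinamide, was at 19.1, 21.3, 22.3 and 14.9 TPM against 141, 107, 141 and 125 TPM, a difference of -2.67 ± 0.36 (adjusted p = 3.3e-06). Both were tightly grouped with T0901317 and far from any vehicle value. Clec2h, a C-type lectin gene, was at 0.591, 0.719, 1.78 and 1.33 TPM against 5.75, 12.7, 38.2 and 8.81 TPM, a difference of -2.74 ± 0.59 (adjusted p = 0.0017), with vehicle replicate 3 the highest. Mup-ps19, a pseudogene of the urinary proteins, differed by -2.39 ± 0.41, with 89.8% of its sequence shared with other genes.

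The response in the W/W mice differed from that in the mutants. The difference of responses was called for 9726 of 16638 genes between W/F and W/W (58.5%) and for 5065 between F/F and W/W (30.4%). Most of these were lower in the mutant on the deposited scale, 53.2% against 5.27% higher for W/F and 27.2% against 3.29% for F/F. After median-of-ratios rescaling the split was 24.0% against 19.9% for W/F and 10.0% against 7.39% for F/F, so a direction over all genes depends on the scaling. The groups share no mice across genotypes. The vehicle means of the mutants were not those of W/W, so levels are given beside the differences for some genes below. For others, among them Sqle and Abca1, only the differences are given, which do not show the vehicle levels of the mutants.

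Many lipid synthesis genes had a lower response in the mutants than in W/W. Of 37 fatty acid genes, the response in W/F was lower than in W/W for 25 and higher for 6, and after rescaling for 16 and 9. In F/F it was lower for 23 and higher for 3, and after rescaling for 15 and 4. Over all genes tested, 53.2% were lower and 5.27% higher in W/F, and 24.0% and 19.9% after rescaling. The shares in F/F were 27.2% and 3.29%, and 10.0% and 7.39% after rescaling. Of 34 cholesterol genes the response was lower for 26 and higher for 1 in W/F, and for 20 and 3 after rescaling. In F/F it was lower for 25 and higher for 1, and for 22 and 1 after rescaling. Pnpla3 had mean levels of 1.99 TPM with T0901317 and 1.28 TPM with vehicle in heterozygotes, and 1.14 and 1.2 TPM in homozygous mutants, and its response minus that in W/W was -4.14 ± 0.47 and -4.62 ± 0.47 (adjusted p = 3.1e-08 and 4.1e-08). For Sqle the same differences were -3.78 ± 0.24 and -4.40 ± 0.24 (adjusted p = 2.4e-12 and 7.7e-14). Srebf1 and Scd1 did not follow this pattern. For Srebf1 the response exceeded that of W/W by 1.79 ± 0.31 in heterozygotes and 1.55 ± 0.31 in homozygous mutants, from vehicle means of 61.8 and 23.8 TPM, where W/W vehicle mice had 398 ± 171 TPM. For Scd1 it was larger in F/F by 3.86 ± 0.42 (adjusted p = 1.2e-07), from a vehicle mean of 13.1 TPM, and not called in W/F at 0.41 ± 0.42. Abca1 had a lower response in W/F, at -0.95 ± 0.21 (adjusted p = 0.00035), which after rescaling was -0.30, and its difference in F/F was not called at -0.11 ± 0.21.

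For male-biased genes the median response was negative in W/W and positive in W/F. For 29 of 33 the response was higher in W/F than in W/W, and for 15 it was higher in F/F. The counts were 30 and 15 after rescaling. Over all genes tested, 5.27% and 3.29% were higher, and 19.9% and 7.39% after rescaling. Median responses of these male-biased genes were -1.04 in W/W, 2.99 in heterozygotes and 0.25 in homozygous mutants. Serpina1e fell in W/W and rose in W/F, from a vehicle mean of 376 TPM to 4548 TPM, a difference of responses of 9.04 ± 0.81 (adjusted p = 7.2e-10). Ly6d moved the other way, up in W/W and down in heterozygotes, from 597 TPM with vehicle to 10.5 TPM, a difference of -10.78 ± 0.72 (adjusted p = 5.3e-12). Markers of stellate cells and fibrosis gave a lower response in heterozygotes for 31 of 31 and in homozygous mutants for 25 of 31, and for 29 and 19 after rescaling. The shares of all genes tested that were lower were 53.2% and 27.2%, and 24.0% and 10.0% after rescaling.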

How the data were processed

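Liver RNA of single mice was sequenced, and the authors deposited TPM per gene for all 36 libraries. Reads were trimmed with Trimmomatic 0.36, aligned with STAR 2.5.2b and counted with featureCounts of Subread 1.5.2 against GRCm38 (mm10), per the submitters' processing notes. The strand setting is not given in the sources used here, so overlapping and antisense genes cannot be told apart. Shared and overlapping exon sequence was computed from GENCODE M21.

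Genes of at least 1 TPM in at least 4 of 36 libraries (16638) were tested on log2(TPM + 1) with limma 3.58.1 (R 4.3.3), as means of 9 groups with 27 residual degrees of freedom, a variance trend and Benjamini-Hochberg adjustment. Low values were whole multiples of 1 read for 93.7% to 95.7% of values (tolerance 0.1 read), which gave depths of 18.1 to 35.8 M reads over the 36 libraries. On simulated data for this comparison, 83% of changes of 1 and 98% of changes of 2 (log2) were recovered, and 6.22% of calls were false. The simulation changed 100 genes of each size and drew independent normal noise with 1 spread per gene for all groups. These rates therefore need not hold for the real libraries, whose spreads can differ between groups. Nothing in the labels ties samples to litters or cages, so p-values measure only the spread between these samples.

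Named genes were the 12 largest rises and 12 largest falls among called genes without overlap and of at least 5 TPM in 1 of the groups, the leading called members of each list, and fixed genes. Of these, the 5 with the largest called difference of response from each mutant were described for it. Some genes that this rule names are not reported here. Members and lists were chosen with earlier results of these data known. Crebbp, Hsd3b7, Otc, Cd4, Mcm2, Mcm6, Acsl3, Gpnmb, Trem2, Mki67 and Alb were named after their values were seen. Alternatives tried were another pseudocount, other filters, median-of-ratios rescaling, a replicate block, array weights, only the groups compared, and leaving out each library. Voom on recovered reads and TPM without mitochondrial genes were chosen after seeing the data.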

Additional observations from a re-analysis of the deposited data

Results flagged for a closer look

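Single mice stood apart from the other 3 of their group for 14 of the named genes, by a gap above the 95% limit of Dixon's test for 4 values, which chance exceeds in about 1 in 20 groups. These were 15 of 264 groups checked, close to the 5% that chance gives. They were not spread evenly over the libraries, since most were in T0901317 replicate 2 or vehicle replicate 4, and the 5% does not describe single libraries. T0901317 replicate 2 was the highest of its group for Cd63 at 91.1 TPM, for Cyp2b10 at 23.4 TPM, for Trem2 at 1.66 TPM and for Gstm3 at 1230.4 TPM, and the lowest for Ghr at 68.5 TPM and for Mup21 at 94.6 TPM. Vehicle replicate 4 was the highest for Cd63 at 27.8 TPM, for Col1a1 at 8.44 TPM, for Gpnmb at 3.05 TPM, for Mcm2 at 1.07 TPM and for Mlxipl at 272 TPM. Vehicle replicate 1 was the highest for Nr1i3 at 108 TPM and for Spp1 at 55.4 TPM. Vehicle replicate 2 was the highest for Acot3 at 42.6 TPM, and vehicle replicate 3 for Agt at 737 TPM.

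The response to T0901317 differed between genotypes for many of the named genes by the test of the difference in limma, and the 5 with the largest differences from each mutant are given. The vehicle levels of the mutants, which were not those of W/W, are not given beside them. The response in W/F minus that in W/W was -10.78 for Ly6d (adjusted p = 5.3e-12), 9.53 for Serpina4-ps1 (adjusted p = 1.6e-08), 9.04 for Serpina1e (adjusted p = 7.2e-10), -8.72 for Cyp2a4 (adjusted p = 1.5e-10) and 8.06 for Hsd3b5 (adjusted p = 4.4e-06). In F/F minus W/W it was -5.44 for Ly6d (adjusted p = 2.7e-06), 5.37 for Serpina1e (adjusted p = 2.0e-05), -5.11 for Fabp5 (adjusted p = 3.2e-08), 4.75 for Serpina4-ps1 (adjusted p = 0.0013) and 4.63 for Slc22a7 (adjusted p = 1.3e-09). Over all genes tested the difference of responses was called for 9726 genes in W/F and for 5065 in F/F.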

How the results depend on the processing

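The count of 1794 called genes was within a factor of 1.5 under every alternative tried, from 1333 to 1682 when 1 library was left out and from 1420 to 2587 otherwise. The number of genes called at 2-fold or more was 373 as reported, 327 to 395 when 1 library was left out, 608 with a pseudocount of 0.1 and 577 with voom on recovered reads. The difference of responses between W/F and W/W was called for 9033 to 9877 genes when 1 library was left out. Between F/F and W/W it was called for 3616 to 5493 when 1 library was left out, for 2900.0 after median-of-ratios rescaling and for 2893 with voom. The cause of these shifts was not tested. The share of TPM in the 100 most abundant genes, T0901317 minus vehicle, was -2.03 percentage points (exact permutation test, two-sided, p = 0.0571), -1.70 for the 500 most abundant (p = 0.0286) and -2.59 to -0.960 when 1 library was left out, reaching p = 0.0286 without vehicle replicate 2.

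Deviations of same-numbered T0901317 and vehicle libraries from their group means had r of -0.09 to 0.12 across genes, which are not independent replicates. Libraries of different number had r of -0.12 to 0.06. Such values cannot settle whether the numbers pair the samples. With the replicate block, 1852 genes were called in W/W, 9763 for W/F minus W/W and 5227 for F/F minus W/W. Of 128 named genes, 113 were called in W/W, 79 of these under all 17 alternatives, and none changed direction past the threshold in 2173 recomputed values. A fit of only the 8 libraries ended 23 of these calls, among them those of Acot3, Cd9, Cidea, Cpt1a, Cyp7a1, Hsd3b5, Mlxipl, Srebf1 and Xbp1, and testing all genes without a filter ended 11, including Cpt1a, Cyp7a1, Hsd3b5, Mlxipl, Nr1i3 and Xbp1. Changes under about 0.5 on the log2 scale were often close to the threshold at 4 mice a group.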

Other observations

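Genes of the unfolded protein response, which match the folding capacity of the endoplasmic reticulum to its load, were lower with T0901317 for 5 of 29 and higher for none, with a median of -0.24. Leaving out 1 library gave 1 to 5, with 1 without T0901317 replicate 2 or 4 or vehicle replicate 3. Without T0901317 replicate 1 or vehicle replicate 2 or 4 the count was 2, and without T0901317 replicate 3 it was 3. Sdf2l1, a chaperone cofactor of the endoplasmic reticulum, was at 29.95, 23.3, 27.1 and 26.7 TPM with T0901317 and 37.3, 56, 109.9 and 104 TPM with vehicle, without overlap, a difference of -1.36 ± 0.33 (adjusted p = 0.0056). Xbp1, a transcription factor of the same response, was at 144, 106, 158 and 97.6 TPM against 158, 176, 221 and 171 TPM, and its call at -0.54 ± 0.17 was lost without T0901317 replicate 2 or 4 or vehicle replicate 2 or 3 (adjusted p 0.053 to 0.15). Of 20 circadian clock genes 2 were lower and none higher, beside 2.91% and 7.87% of all genes. Nfil3, a repressor driven by the clock, was at 7.79, 12.7, 9.24 and 7.75 TPM against 21, 23.2, 32.2 and 14.9 TPM, a difference of -1.18 ± 0.31 (adjusted p = 0.010) that was not called without vehicle replicate 3 (adjusted p = 0.054). The other was Cry1 at -0.81 ± 0.25, a core repressor of the clock, not called without T0901317 replicate 2 or 4 or vehicle replicate 1 or 3 (adjusted p 0.058 to 0.16).

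Enzymes of the urea cycle and of amino acid breakdown were lower for 8 of 31 and higher for 1, with a median of -0.19, and without T0901317 replicate 2 the counts were 2 and 0. The count of lower genes was 4 without vehicle replicate 3 and 5 in a fit of only the 8 libraries. Hal, which starts histidine breakdown, was at 76.9, 62.3, 110.0 and 107 TPM against 110.5, 161, 183 and 173 TPM, and its call at -0.82 ± 0.23 was lost without that library (adjusted p = 0.091), without vehicle replicate 3 or 4 (adjusted p = 0.063 and 0.051) and in a fit of only the 8 libraries. Otc, the urea cycle enzyme that makes citrulline, was at 196, 157, 235 and 201 TPM against 278, 254, 241 and 279 TPM, a difference of -0.42 ± 0.11 (adjusted p = 0.0085) without overlap, not called without T0901317 replicate 2 (adjusted p = 0.067) or in a fit of only the 8 libraries. Interferon-stimulated genes had 25 of 30 positive differences with a median of 0.44. Of the 30, 2 were called higher, beside 7.87% of all genes. These were Ifit2 and Usp18, and neither was called without T0901317 replicate 2 (adjusted p = 0.14 and 0.056). The count was also 0 without T0901317 replicate 3 or vehicle replicate 1, 2 or 3, and 2 without vehicle replicate 4, which was the highest vehicle mouse for 26 of the 30. It was 5 in a fit of only the 8 libraries.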
